A study of Zea mays with 12 samples.

Results

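The 4 genes described here encode subunits of Polycomb repressive complex 2 in maize, and they were chosen by gene identifier among 39656 genes with values. They are GRMZM2G118205, GRMZM2G148924, GRMZM5G875502 and GRMZM2G043484, which had been listed as fie1, fie2, mez1 and mez2. The RefSeq gene table gives the first pair as fie1 and fie2, but it gives GRMZM5G875502 as mez2 and GRMZM2G043484 as mez3, and these names are used below. In that table mez1 is GRMZM2G157820. It is not one of the 4 members, and its values are given separately because mez1 is the E(z) gene known to be imprinted in maize endosperm.

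The study compared the naked endosperm mutant (nkd) with the inbred line B73 in laser-captured aleurone, the outer cell layer of the endosperm, and in starchy endosperm, the storage tissue inside it. The nkd plants were of the fourth backcross generation into B73. The series title describes the nkd genes as duplicate transcription factors with ID domains, and the labels name no allele. The groups were nkd aleurone, B73 aleurone, nkd starchy endosperm and B73 starchy endosperm, each with 3 libraries from kernels harvested 15 days after pollination.

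Polycomb repressive complex 2 places methyl groups on lysine 27 of histone H3, a mark that keeps genes silent through cell divisions. An Enhancer of zeste (E(z)) subunit carries the enzyme activity and an Extra sex combs (ESC) subunit, a WD-repeat protein, binds it and stimulates it. The mez genes encode E(z)-type subunits and the fie genes ESC-type subunits. In cereal endosperm some of these genes are imprinted: in maize, fie1 and mez1 are expressed from the maternal copy, whereas fie2 is active in many tissues.

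The libraries held between 9570998 and 64000784 reads assigned to genes. B73 starchy endosperm was the most variable group: over 20309 genes, the mean correlation of a library with the others of its group was 0.827 to 0.871 there, against 0.883 to 0.946 in the other 9 libraries. Transcripts of nkd2 (GRMZM5G884137) were at 589 ± 150 normalised reads in nkd aleurone and 2522 ± 374 in B73 aleurone (log2 difference -2.11, limma adjusted p = 0.00259), and at 989 ± 81.8 in nkd and 1917 ± 406 in B73 starchy endosperm (-0.94, adjusted p = 0.22). For nkd1 (GRMZM2G129261) the means were 4063 ± 532 in nkd and 6104 ± 756 in B73 aleurone (limma adjusted p = 0.212), and 2487 ± 207 in nkd and 7835 ± 5319 in B73 starchy endosperm (adjusted p = 0.22) (SD, n = 3 each). All 6 aleurone markers and all 26 zeins, the storage proteins of starchy endosperm, were detected in each of the 4 groups. Zeins took 0.178% to 0.903% of the reads in nkd aleurone, 13.9% to 26.6% in B73 aleurone, 4.18% to 10.7% in nkd starchy endosperm and 24.3% to 39.1% in B73 starchy endosperm. The aleurone markers summed to 5026 to 12201 CPM (read counts scaled to a common library total by the trimmed mean method, TMM) in nkd aleurone, 5916 to 10537 in B73 aleurone, 237 to 820 in nkd starchy endosperm and 570 to 2170 in B73 starchy endosperm. Markers of maternal pericarp and nucellus, 8 genes, summed to 79.0 to 173 CPM in nkd aleurone, 39.8 to 69.4 in B73 aleurone, 29.0 to 108 in nkd starchy endosperm and 12.03 to 60.6 in B73 starchy endosperm. In aleurone 2 of the 7 tested were called higher in nkd and 1 lower, with a median log2 difference of 2.06. Of all genes 6.32% were called higher and 8.28% lower there. In starchy endosperm 1 of 7 was called higher, beside 0.464% of all genes, with a median of 0.55. Markers of the basal transfer layer, 9 genes, summed to 17.4 to 179 CPM in nkd aleurone, 12.3 to 26.0 in B73 aleurone, 24.8 to 330 in nkd starchy endosperm and 13.7 to 31.5 in B73 starchy endosperm. None of the 8 tested was called, and their median log2 difference between genotypes was 0.70 in aleurone and 2.15 in starchy endosperm. The part of these mixtures in the results below was not tested. In tissue samples, fewer cells of a type and less RNA per cell cannot be told apart.

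Among the 4 members, fie1 showed the clearest pattern: it stood apart in nkd starchy endosperm, while the other 3 groups overlapped. In CPM, the scale used between cell types, fie1 was at 116, 128 and 93.2 in nkd starchy endosperm and at 49.4, 43.2 and 35.9 in B73 starchy endosperm. It was at 41.2, 33.6 and 68.0 in nkd aleurone and at 50.1, 43.6 and 47.9 in B73 aleurone. Every nkd starchy endosperm library lay above every library of the other groups. The order of the group means was 113 ± 17.9 in nkd starchy endosperm, 47.6 ± 18.1 in nkd aleurone, 47.2 ± 3.29 in B73 aleurone and 42.9 ± 6.77 in B73 starchy endosperm (SD, n = 3 each), and the last 3 of these overlapped.

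**Figure D1:**
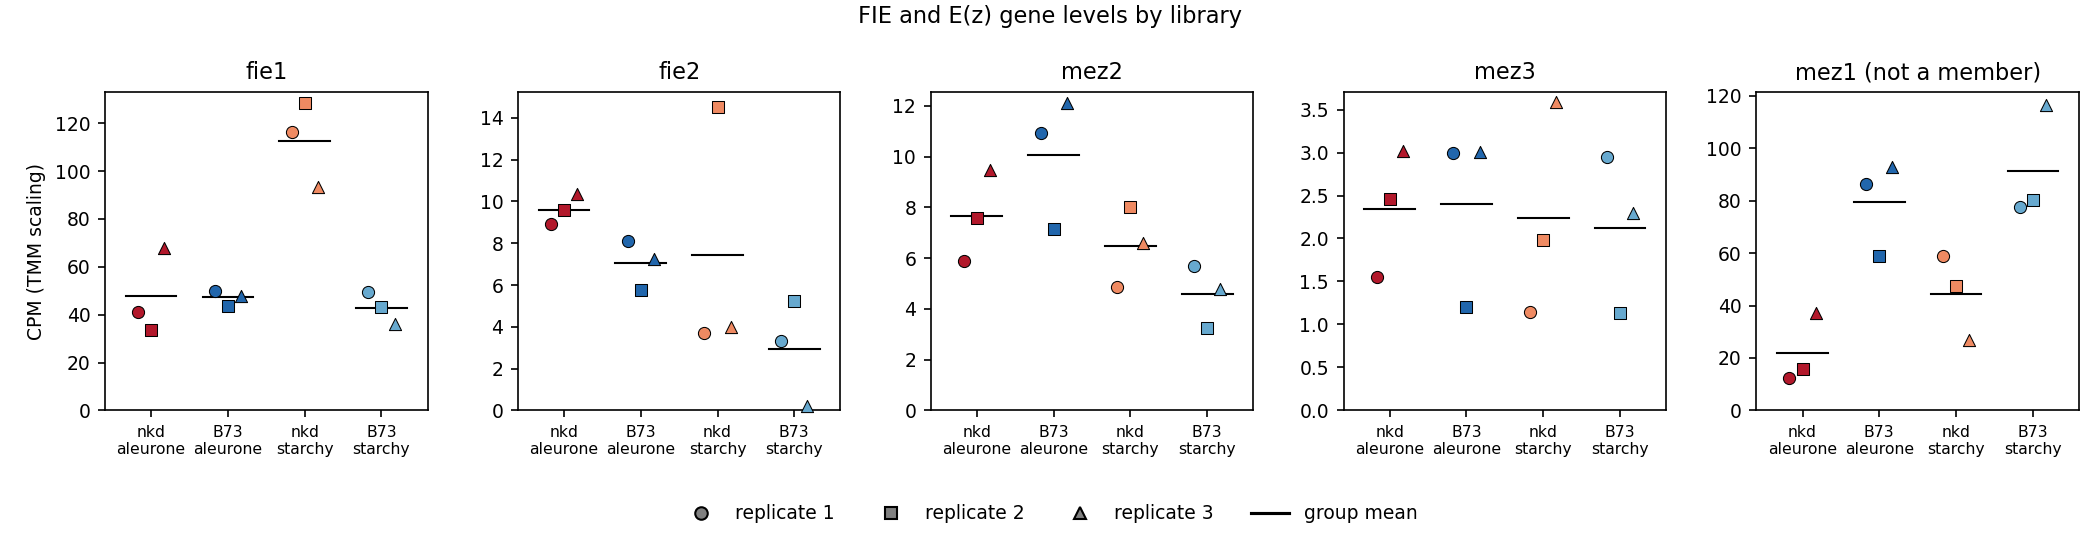
CPM (TMM scaling, linear axes from 0, each panel with its own range) of fie1, fie2, mez2, mez3 and, for comparison, mez1 in the 12 libraries; marker shapes give the replicate number and horizontal bars the mean of 3 libraries. The nkd starchy endosperm libraries of fie1 sit between 93.2 and 128, above all others, and the mez1 values of nkd lie below those of B73 in both cell types.

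Within nkd, fie1 was lower in aleurone than in starchy endosperm by 2.37-fold (log2 difference -1.25, SE 0.32, edgeR quasi-likelihood test with Benjamini-Hochberg adjustment, adjusted p = 0.0361), with all 3 aleurone libraries below all 3 starchy endosperm libraries. It was the 1 member of 4 called in this comparison, where 6.48% of 26684 genes were called, 3.28% in the higher and 3.2% in the lower direction. It was also the 1 member whose groups did not overlap, against 28.4% of all genes, 16.1% higher and 12.4% lower. The flow cells carried 1 library of each group, and within them the log2 difference was -1.48, -1.90 and -0.45. With the flow cell as a block the adjusted p was 0.0597, and it was 0.101 to 0.122 without nkd aleurone replicate 1 or 2 or without nkd starchy endosperm replicate 1 or 2. Within B73 the same comparison of fie1 gave a log2 difference of 0.15 (SE 0.32, adjusted p = 0.85), with overlapping groups.

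Between genotypes in starchy endosperm, fie1 had 2413, 2629 and 2029 normalised reads in the nkd libraries, against 1072, 877 and 843 in the B73 libraries. The values did not overlap. The means were 2357 ± 304 in nkd and 931 ± 124 in B73 (SD, n = 3 each), a 2.53-fold difference (log2 difference 1.34, 95% interval 0.62 to 2.06). It did not pass the limma test (adjusted p = 0.0739), in which 1.78% of 24582 genes were called (0.464% higher, 1.31% lower) and none of the 4 members. The same difference passed with DESeq2 (adjusted p = 0.0113) and when all 12 libraries were fitted together with limma (adjusted p = 0.0214). Within flow cells it was 1.17, 1.58 and 1.27 on the log2 scale. The value was 1.30 without B73 starchy endosperm replicate 2 (adjusted p = 0.15), and the adjusted p ran from 0.138 to 0.238 when single libraries were left out. Groups that did not overlap were found for 21.3% of all genes in this comparison, 11.3% in the higher and 10% in the lower direction, and for fie1 alone among the members.

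In aleurone the fie1 levels of the genotypes overlapped, with 1772, 1393 and 2820 normalised reads in nkd libraries and 2065, 1917 and 1936 in B73 libraries. The log2 difference was -0.05 (95% interval -0.78 to 0.69, limma adjusted p = 0.943), and edgeR and DESeq2 gave differences of 0.02 and 0.0017, so its sign was not fixed. The B73 aleurone libraries were close to each other, with an SD of 0.058 on the log2 scale, against a median of 0.462 over all genes tested in that group; in nkd aleurone the SD was 0.517, against a median of 0.568. The difference between the genotype effects in aleurone and starchy endosperm was -1.40 for fie1 (SE 0.45, edgeR unadjusted p = 0.00853, adjusted p = 0.473). No gene of 26684 passed that test with edgeR, so percent called was 0, although 2174 had an unadjusted p below 0.05. DESeq2 called 194 genes and limma 1, and fie1 did not pass with either.

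The other ESC-type gene, fie2, showed another order. In aleurone it had 383, 397 and 429 normalised reads in nkd and 335, 254 and 292 in B73. All nkd values lay above all B73 values, as for 33.7% of all genes in either direction and 16.8% in the higher one, and fie2 was the 1 member without overlap. The means were 403 ± 23.4 in nkd and 294 ± 40.7 in B73 (SD, n = 3 each). This difference did not pass (log2 difference 0.46, 95% interval -0.24 to 1.16, limma adjusted p = 0.37), and none of the 4 members was called in aleurone, where 14.6% of 26496 genes were called, 6.32% higher and 8.28% lower.

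In starchy endosperm fie2 was uneven within each genotype. It had 77.1, 298 and 87.2 normalised reads in nkd libraries and 72.5, 107 and 4.48 in B73 libraries. The low B73 library, replicate 3, was also the least deep of the 12 and held a single fie2 read. That read was 0.104 CPM without TMM scaling (exact 95% binomial interval 0.00265 to 0.582, covering counting error only). The groups overlapped, and the log2 difference of 1.86 had a 95% interval of -0.62 to 4.33 (limma adjusted p = 0.473). Leaving out single libraries moved it between 0.52 and 2.66. Within flow cells it was 0.09, 1.47 and 4.01.

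Between cell types, fie2 in B73 was at 8.13, 5.77 and 7.24 CPM in aleurone and at 3.34, 5.25 and 0.191 in starchy endosperm. These values did not overlap, and the log2 difference of 1.21 did not pass (SE 0.77, edgeR adjusted p = 0.445). In nkd the values were 8.90, 9.58 and 10.3 in aleurone and 3.72, 14.5 and 4.00 in starchy endosperm (0.36, SE 0.75, adjusted p = 0.832). The nkd starchy endosperm library on the second flow cell exceeded all aleurone libraries, and the other 2 lay below them.

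The E(z)-type members mez2 and mez3 did not pass in any of the 5 comparisons. In aleurone mez2 had 253, 314 and 393 normalised reads in nkd and 451, 314 and 489 in B73. The lower part of the B73 range fell inside the nkd range, and the log2 difference was -0.38 (95% interval -1.16 to 0.39, limma adjusted p = 0.516). In starchy endosperm the mez2 values were 100.9, 164 and 144 in nkd and 124, 66.1 and 112 in B73 (log2 difference 0.46, 95% interval -0.83 to 1.74, adjusted p = 0.751).

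Across cell types of B73, mez2 was at 10.9, 7.15 and 12.1 CPM in aleurone and at 5.70, 3.26 and 4.77 in starchy endosperm. The aleurone libraries were all higher, by 2.22-fold on the fitted scale (log2 difference 1.15, SE 0.44, edgeR unadjusted p = 0.0197, adjusted p = 0.231), and by 0.83, 0.94 and 1.18 on the log2 scale within flow cells. In this comparison edgeR called 0% of 26684 genes, 4336 of which had an unadjusted p below 0.05, while DESeq2 called 1438 and limma 389. Groups without overlap were found for 24.5% of all genes, 15.7% in the higher and 8.77% in the lower direction, and for 2 of the 4 members, mez2 and fie2. Without B73 starchy endosperm replicate 2 edgeR called 422 genes, and the mez2 difference was 0.95 (adjusted p = 0.257). In nkd the mez2 levels of 5.89, 7.57 and 9.47 CPM in aleurone and 4.87, 8.01 and 6.61 in starchy endosperm overlapped (0.23, SE 0.42, adjusted p = 0.812).

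The least read member was mez3, with between 12 and 202 reads in a library. Its means were 2.34 ± 0.74 CPM in nkd aleurone, 2.40 ± 1.04 in B73 aleurone, 2.24 ± 1.24 in nkd starchy endosperm and 2.12 ± 0.92 in B73 starchy endosperm (SD, n = 3 each). All groups overlapped, and no order of them could be read. The log2 difference between genotypes was 0.03 in aleurone (95% interval -1.06 to 1.13, limma adjusted p = 0.976) and -0.02 in starchy endosperm (-1.91 to 1.86, adjusted p = 0.995), and both signs changed with other tests or scalings.

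**Figure D2:**
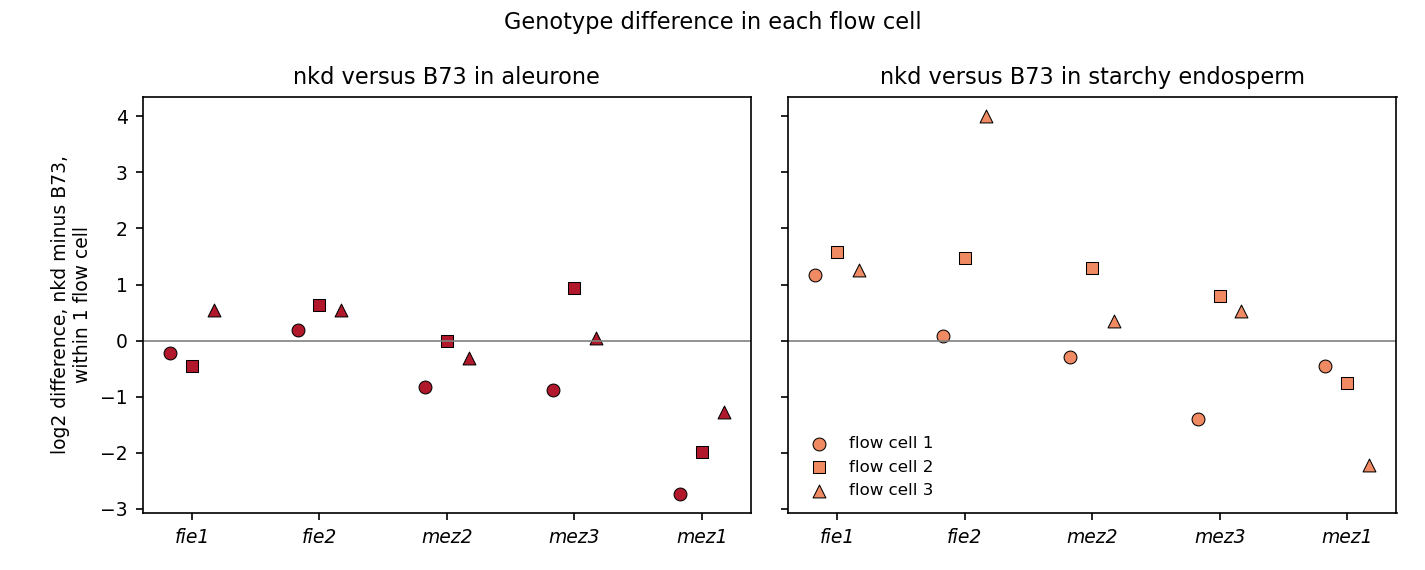
Log2 difference, nkd minus B73, between the libraries that shared a flow cell, for fie1, fie2, mez2, mez3 and mez1 in aleurone (left) and starchy endosperm (right), 1 point per flow cell. In starchy endosperm the 3 fie1 points lie between 1.17 and 1.58, whereas those of fie2 run from 0.09 to 4.01.

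The gene named mez1 in the RefSeq table, GRMZM2G157820, had a larger log2 difference between genotypes in aleurone than any of the 4 members, a contrast between genes that was not itself tested. It had 534, 659 and 1543 normalised reads in nkd aleurone and 3565, 2596 and 3748 in B73 aleurone. All nkd values lay below all B73 values, as for 16.8% of all genes. The means were 912 ± 550 in nkd and 3303 ± 620 in B73 (SD, n = 3 each). On the fitted scale mez1 fell 3.99-fold (log2 difference -2.00, SE 0.42, limma adjusted p = 0.0122), and within flow cells the difference was -2.74, -1.98 and -1.28. The adjusted p was 0.0561 without B73 aleurone replicate 1 and 0.0566 without B73 aleurone replicate 3.

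In starchy endosperm mez1 had 1221, 968 and 587 normalised reads in nkd and 1680, 1629 and 2730 in B73. The groups did not overlap, as for 10% of all genes in the lower direction. The difference did not pass (log2 difference -1.14, 95% interval -2.02 to -0.26, limma adjusted p = 0.207). The zein share of reads was lower in nkd libraries of both cell types, as given above, and its part in the mez1 difference was not tested. In B73 mez1 was at 79.4 ± 17.9 CPM in aleurone and 91.4 ± 21.6 in starchy endosperm (SD, n = 3 each), a log2 difference of -0.19 (SE 0.43, edgeR adjusted p = 0.857). Within nkd it was at 12.4, 15.9 and 37.2 CPM in aleurone and at 59.0, 47.3 and 26.9 in starchy endosperm, with overlap (-1.03, SE 0.43, adjusted p = 0.17). The difference of the genotype effects between cell types was -0.84 (SE 0.60, adjusted p = 0.758).

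Ratios of reads between members of a library do not depend on its scaling. They were formed after values had been seen, as 5 ratios in 4 comparisons. With 3 libraries against 3 the exact two-sided permutation test cannot give a p below 0.1. After Benjamini-Hochberg adjustment over the 20 differences, the lowest value of that test here was 0.2. Read ratios are not corrected for transcript length, so only differences between groups are read from them. The ratio of fie1 to mez1 was 3.32, 2.11 and 1.83 in nkd aleurone and 0.579, 0.739 and 0.517 in B73 aleurone, a log2 difference of 1.95 without overlap. In starchy endosperm it was 1.98, 2.72 and 3.46 in nkd and 0.638, 0.538 and 0.309 in B73, a log2 difference of 2.48, again without overlap. Every nkd library therefore had a higher ratio of fie1 to mez1 than every B73 library. The ratio of mez1 to mez2 was 2.11, 2.10 and 3.93 in nkd aleurone and 7.91, 8.25 and 7.66 in B73 aleurone (log2 difference -1.61). In starchy endosperm the log2 difference was -1.60, with 12.1, 5.90 and 4.08 in nkd and 13.6, 24.7 and 24.4 in B73. The ratio of fie1 to fie2 was lower in aleurone than in starchy endosperm, without overlap in either genotype. In nkd it was 4.63, 3.51 and 6.58 in aleurone and 31.3, 8.84 and 23.3 in starchy endosperm (log2 difference -1.97). For B73 the values were 6.16, 7.55 and 6.62 in aleurone and 14.8, 8.23 and 188 in starchy endosperm (log2 difference -2.07). The value of 188 rests on a single fie2 read, and the SD of the log2 ratio in B73 starchy endosperm was 2.40. Each of these differences had p = 0.1, adjusted 0.2, in the exact permutation test. Of the 20 differences 10 had groups without overlap, all at that p, and the other 10 overlapped. The ratios share genes, and the share without overlap among ratios of other gene pairs was not determined. The count is therefore not a result about these genes. Among those that overlapped were fie1 over fie2 between genotypes (exact permutation p = 0.2 in aleurone and 0.9 in starchy endosperm), fie1 over mez1 between cell types (p = 0.7 in nkd and 0.5 in B73) and mez1 over mez3 between genotypes in starchy endosperm (p = 0.3).

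**Figure D3:**
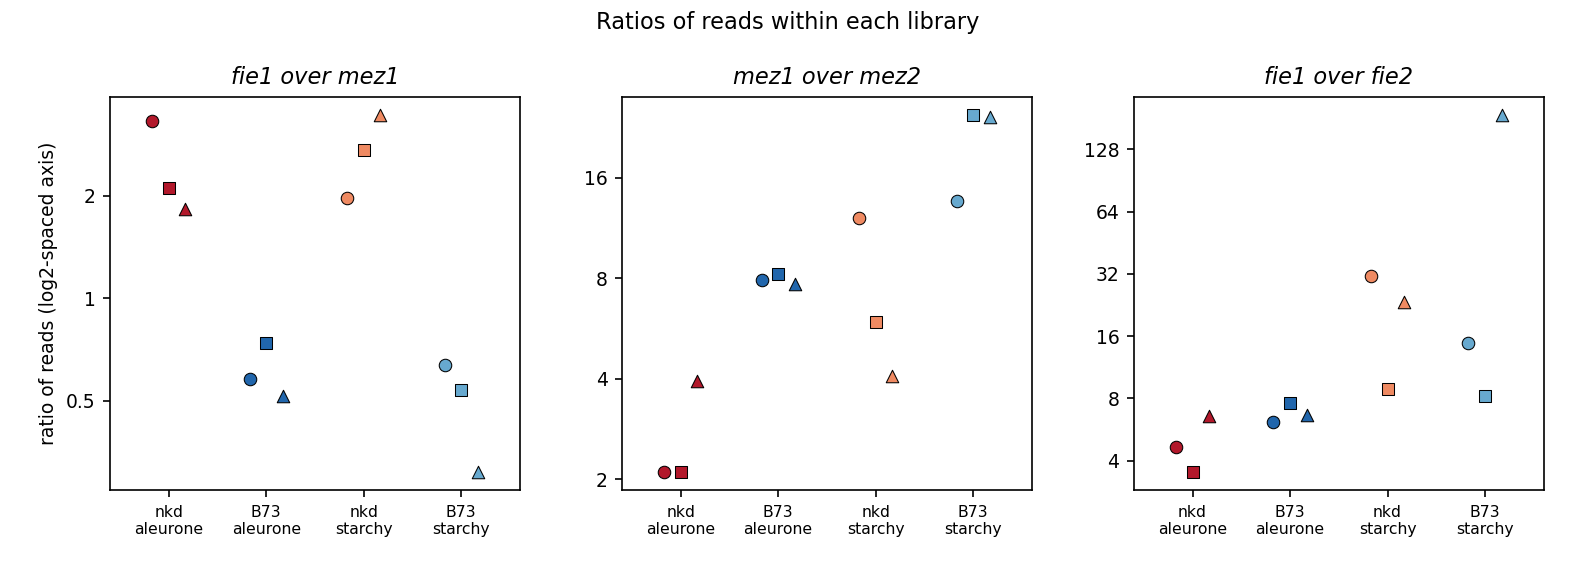
Ratio of reads of fie1 over mez1, mez1 over mez2 and fie1 over fie2 in each of the 12 libraries, on log2-spaced axes; marker shapes give the replicate number. The fie1 over mez1 ratio lies between 1.83 and 3.46 in the 6 nkd libraries and between 0.309 and 0.739 in the 6 B73 libraries.

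Other Polycomb genes were looked up from a list of symbols, and 5 beside the members were found, so further genes of the complex may be missing. They were vef101, an Su(z)12-type subunit, and nfc101, nfc102, nfc103 and nfc104, WD-repeat proteins of the p55/MSI1 family that bind histones. None of the 5 passed in any comparison. Their median log2 difference between genotypes was 0.69 in aleurone, where that of all genes was 0.04, and -0.04 in starchy endosperm, where that of all genes was 0.12. In aleurone nfc104 averaged 1002 ± 283 normalised reads in nkd and 504 ± 19.95 in B73 (log2 difference 0.95, limma adjusted p = 0.0834), nfc103 had a difference of 0.75 (adjusted p = 0.15) and nfc101 one of 0.69 (adjusted p = 0.155). All 3 had higher values in every nkd library, as did 16.8% of all genes, and vef101 had lower ones in every nkd library, as did 16.8%. The Su(z)12-type gene vef101 averaged 202 ± 22.6 in nkd aleurone and 257 ± 7.26 in B73 aleurone (SD, n = 3 each; -0.35, adjusted p = 0.533).

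Retinoblastoma-related proteins bind E2F transcription factors, and Polycomb subunits of the MSI1 family bind retinoblastoma-related proteins in plants. Of 3 such genes rbr3 rose in nkd aleurone, and rbr1 and rbr2 did not pass, beside 14.6% of all genes called and 6.32% called higher. The gene rbr3 had 313, 402 and 451 normalised reads in nkd aleurone and 74.9, 205 and 141 in B73 aleurone, without overlap (log2 difference 1.56, SE 0.43, limma adjusted p = 0.0393). In starchy endosperm its values were 287, 225 and 280 in nkd and 38.4, 83.6 and 117 in B73, also without overlap (1.85, SE 0.59, adjusted p = 0.164). Of all genes 16.8% were higher in nkd without overlap in aleurone, and 11.3% in starchy endosperm. In aleurone rbr2 also had groups without overlap, in the lower direction, as did 16.8% of all genes (-0.96, SE 0.44, adjusted p = 0.183). The rbr3 call was lost (adjusted p = 0.0853) when all 12 libraries were fitted together and also without B73 aleurone replicate 1 or 3 or any nkd aleurone replicate (adjusted p = 0.0681 to 0.136).

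**Figure D4:**
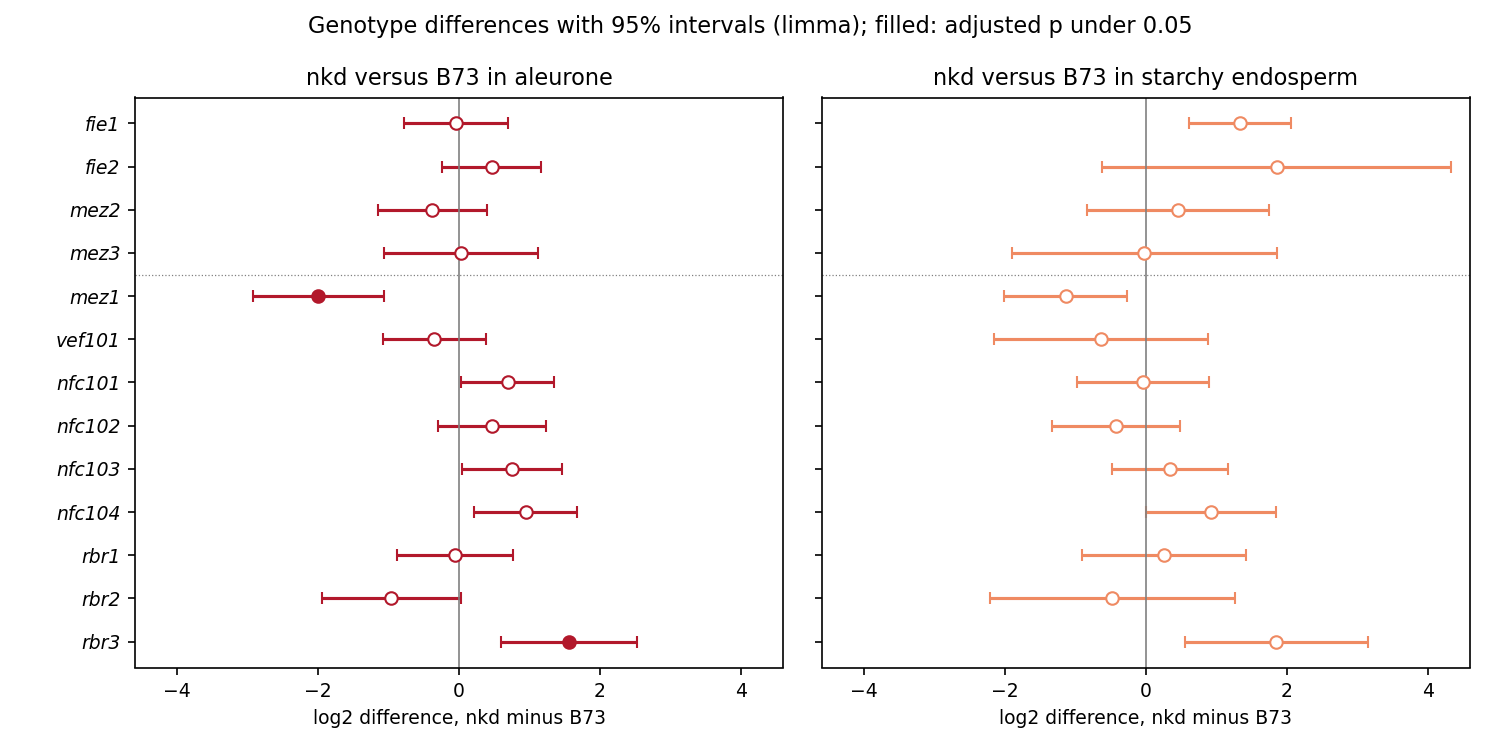
Log2 difference, nkd minus B73, with its 95% interval (limma, 3 libraries a group) in aleurone (left) and starchy endosperm (right). The 4 members are above the dotted line, and mez1, the other listed Polycomb genes and the retinoblastoma-related genes are below it. Filled points passed the test (adjusted p under 0.05 over all genes): mez1 at -2.00 and rbr3 at 1.56, both in aleurone.

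Of 3 other listed genes with imprinted expression in maize endosperm, nrp1 and mez1 fell in nkd aleurone and meg1, a peptide gene of the basal transfer layer, did not pass; of all genes 14.6% were called and 8.28% fell. The maternally expressed nrp1 had 610, 300.3 and 1049 normalised reads in nkd aleurone and 16153, 6021 and 3494 in B73 aleurone (log2 difference -3.59, SE 0.60, limma adjusted p = 0.00444). It was also lower in aleurone than in starchy endosperm of nkd (-4.05, SE 0.74, edgeR adjusted p = 0.00856), and in B73 that difference was -0.62 (adjusted p = 0.667). The test of the difference between these did not pass (-3.43, SE 0.95, edgeR adjusted p = 0.404). In starchy endosperm the genotype difference of nrp1 was -0.50 (adjusted p = 0.693). For nrp1 both calls held under each alternative tried. The meg1 difference was 0.86 in aleurone (adjusted p = 0.7) and 4.03 in starchy endosperm (adjusted p = 0.278), both with overlap.

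Homeobox genes of the KNOX class and MADS-box genes are known Polycomb targets in plants. Of 7 class I KNOX genes 6 were tested in aleurone and 5 in starchy endosperm, and none passed. Of 32 MADS-box genes 27 were tested. In nkd aleurone 3 of them fell, none rose and 24 did not pass, with a median log2 difference of -0.49. The share called lower, 3 of 27, was near that of all genes in this comparison (8.28% lower, 14.6% called) and is not a result about this family. The 3 that fell, named after their values were seen, were mads76 (-1.69, limma adjusted p = 0.0363), zmm29 (-1.57, adjusted p = 0.0473) and mads15 (-1.90, adjusted p = 0.0422). With the flow cell as a block their adjusted p was 0.0568, 0.0949 and 0.0857, in the same order. All 3 were also lost with no filter on low values (0.0507, 0.075 and 0.0648), with edgeR (0.0549, 0.06 and 0.0504) and in 1 fit over all 12 libraries (0.186, 0.299 and 0.356). Of the 9 alternatives that kept every library, mads76 and mads15 each passed in 5 and zmm29 in 4. Each call was also lost without B73 aleurone replicate 1, 2 or 3 or nkd aleurone replicate 2, that of mads76 also without nkd aleurone replicate 3, and those of zmm29 and mads15 without nkd aleurone replicate 1. None of the 27 passed in starchy endosperm. Within nkd zmm19 was lower in aleurone than in starchy endosperm (-2.19, edgeR adjusted p = 0.0438, and 0.0548 with the block; lost without nkd starchy endosperm replicate 1 or 2 or any nkd aleurone replicate), and no MADS-box gene passed between cell types of B73.

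Across the 12 libraries the members did not share one profile. As a description over libraries that share depth, scaling and group structure, the Pearson r of log2(CPM + 1) was 0.61 between mez2 and mez3, 0.53 between mez2 and fie2, 0.25 between fie1 and fie2 and 0.07 between fie1 and mez2. Among 1828 other genes with a symbol, those most like fie1 were pac1 (r = 0.93), a WD-repeat regulator of anthocyanin pigment in aleurone, nfa104 (r = 0.93), a gene of the nucleosome assembly protein family, and LOS4 (r = 0.90), named for a DEAD-box RNA helicase of Arabidopsis. Mean levels of pac1 were 58.0 CPM in nkd aleurone, 52.5 in B73 aleurone, 148 in nkd starchy endosperm and 62.3 in B73 starchy endosperm, the same order of nkd starchy endosperm over the rest as in fie1. The genes most like fie2 were LAZ1-5 (r = 0.92), Smh5 (r = 0.91), a single-Myb histone, and spp1 (r = 0.91), a sucrose-phosphatase. Those most like mez2 were NIT1 (r = 0.83), a nitrilase, SnRK2.6 (r = 0.82), a protein kinase, and psat1 (r = 0.81), a phosphoserine aminotransferase. For mez3 they were COAC1 (r = 0.79), ABP (r = 0.68) and WRKY1 (r = 0.61).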

How the data were processed

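RNA from laser-captured cells went through T7-based linear amplification before sequencing, per the labels' protocols, which favours the 3' ends of transcripts. The authors deposited 2 tables of signal values, 1 per cell type, each for 63540 transcripts of 39656 genes. Per the submitters' processing notes FastQC, TopHat and DESeq were used. The sources used here give no versions, genome build or strand handling, and do not say how reads with several places were treated, so overlapping genes and close copies such as mez2 and mez3 may share reads. In every library 100% of the deposited signal values were whole multiples of 1 step (tolerance 0.01): the signal holds reads over a library-wide factor, and the reads were recovered. Each table had been scaled by itself, with a median ratio to the geometric mean of 1.00725 in aleurone and 1.01707 in starchy endosperm libraries.

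The transcript with the highest mean stood for its gene. Genotypes were compared within each table by limma 3.58.1 (trended empirical Bayes, R 4.3.3) on log2(value + 1), which understates changes of low genes, for genes averaging at least 5. Cell types, and the difference of genotype effects, were compared on recovered reads of all 12 libraries by edgeR 4.0.16 (quasi-likelihood test, TMM factors), with SEs taken as the log2 difference over the square root of F. Two-sided p-values were adjusted by Benjamini-Hochberg over all genes tested and a threshold of 0.05; a gene "rose" or "fell" only if it passed. Comparisons share libraries, so they are not independent. The labels call the replicates biological, and do not say how many kernels or ears a library holds. Errors are SDs over 3 libraries. The scripts were tested on simulated data. DESeq2 1.42.0 was an alternative, run on recovered reads.

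The members, gene lists, tests and naming rule were chosen with earlier results of these data known. The rule named the members, up to 4 genes with the highest mean of each list, and the 3 genes with a symbol and a mean of at least 50 reads most correlated with each member; other list genes that passed were named after their values were seen. Names came from RefSeq's table for Zm-B73-REFERENCE-NAM-5.0, in which 47.3% of the genes had an entry. The tests had been planned under the listed names, so GRMZM5G875502 was planned as mez1 and GRMZM2G043484 as mez2. Lists were matched by symbol alone, and a planned list of histone H3 lysine 27 demethylases matched no gene. Embryo and scutellum markers, 4 genes, summed to 37.5 to 85.1 CPM in nkd aleurone, 35.6 to 148 in B73 aleurone, 2.69 to 7.52 in nkd and 12.8 to 21.8 in B73 starchy endosperm, and those of the embryo-surrounding region, 4 genes, to at most 17.6 CPM in any library. The labels put 1 replicate of each group on each flow cell, so the numbers pair the libraries; correlations of same-numbered deviations from the group means ran from -0.232 to 0.208 over 26684 genes. Blocked values are given where they change a call.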

Additional observations from a re-analysis of the deposited data

How the results depend on the processing

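Results were recomputed with other tests, scalings, filters and pseudocounts, with summed transcripts and with 1 fit over all libraries. They were also recomputed with the replicate block (the flow cell) and without each library. For the difference of genotype effects, 1 fit of the deposited values was chosen after seeing the data. In aleurone 3868 genes passed between genotypes, against 1904 in 1 fit over all 12 libraries and 1847 to 3660 without single libraries. In starchy endosperm 437 passed, against 215 with no filter, 199 with edgeR, 1703 with DESeq2, 1411 in the 12-library fit and 9 to 104 without single libraries. Between cell types of nkd 1729 passed, against 3897 with DESeq2 and 654 to 2542 without single libraries. In B73 0 passed, against 1438 with DESeq2, 389 with limma and up to 422 without single libraries (B73 starchy endosperm replicate 2). For the difference of effects 0 passed, against 194 with DESeq2.

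The fie1 difference in starchy endosperm, 1.34, passed with DESeq2 (1.34) and in the 12-library fit (1.34), and was 1.26 to 1.45 without single libraries. The fie1 difference between cell types of nkd lost its call with no filter (-1.24, adjusted p = 0.0504) and with the replicate block (-1.26), and was -1.57 to -1.04 without single libraries. The mez1 difference in aleurone was -2.46 to -1.69 without single libraries, and between cell types of nkd -1.63 to -0.74, passing without nkd aleurone replicate 3 (adjusted p = 0.0475). The replicate block changed no other call of a member or mez1.

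Signs turned for mez3, fie1 and fie2 in the comparisons given here. In aleurone edgeR and DESeq2 gave -0.038 and -0.061 for mez3 and 0.023 and 0.0017 for fie1. In starchy endosperm mez3 was 0.024 with TMM factors, 0.078 with edgeR and 0.037 with DESeq2. Its difference of effects was 0.053 with limma on the deposited values. Without single libraries mez3 ran from -0.37 to 0.28 in aleurone, -0.46 to 0.38 in starchy endosperm, -0.25 to 0.60 and -0.11 to 0.51 between cell types of nkd and of B73, and -0.48 to 0.43 for the difference of effects. For fie1 the range was -0.33 to 0.18 in aleurone and -0.0083 to 0.23 between cell types of B73, and for the difference of effects of fie2 -1.55 to 0.11. In starchy endosperm fie2 had 1 to 588 reads a library, and mez3 was the least read member. The cause of the turned signs, and the part of depth in it, was not tested.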

Other observations

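The reads of fie2 were not spread over its annotated transcripts in the same way in all libraries. The transcripts of a gene share reads. The share of the reads of the most read transcript that was also counted for transcript T05 was 52.1% (49 of 94) and 39.0% (67 of 172) in nkd starchy endosperm replicates 1 and 3. It was 82.7% in replicate 2 and 74.6% to 97.1% in the B73 and nkd aleurone libraries and B73 starchy endosperm replicates 1 and 2. The remaining library, B73 starchy endosperm replicate 3, had 1 read in all. Transcript T06 gave 25.5% and 16.3% in the same 2 nkd starchy endosperm libraries and 37.0% to 61.8% in the other libraries with more than 1 read. No test was made of this pattern, which was seen after the fact.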
